A study of Mus musculus with 6 samples.

Results

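The genes described here are 10 genes for G protein gamma subunits, Gng2, Gng3, Gng4, Gng5, Gng7, Gng8, Gng10, Gng11, Gng12 and Gng13, out of 19937 named genes on the array. They were taken by symbol, and each of the 10 had exactly 1 probe set that carries a single gene symbol in the platform annotation. The family was chosen by the Gng3 difference between the treatments on these same arrays, so this comparison is given for all members as a description, without a test. RNA came from primary neurospheres, free-floating balls of cells that arise from neural precursors in vitro. The titles of all samples call them big neurospheres, so the values are not those of all spheres of a culture. They were cultured from hippocampal tissue of male C57BL/6J mice, 8 to 12 weeks old. All spheres grew in medium with EGF and bFGF, with 10 µM norepinephrine in 3 samples and 15 mM KCl in 3 samples, and were collected on day 14. Norepinephrine is a monoamine transmitter that acts on G protein-coupled receptors, and raised KCl depolarises excitable cells. No untreated group was analysed here, so a difference cannot be assigned to either treatment. The labels call the samples biological replicates, but do not say whether they stem from different animals or cultures, so errors measure the spread between these samples.

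A heterotrimeric G protein consists of an alpha subunit, which binds guanine nucleotides, and a tightly joined dimer of a beta and a gamma subunit. When a receptor such as an adrenergic receptor activates the protein, the beta-gamma dimer is freed and acts on potassium and calcium channels, phospholipases, adenylyl cyclases and a lipid kinase. The gamma subunit is a small protein that carries a prenyl lipid at its C-terminus, which holds the dimer at the membrane, and its many genes differ in where they are expressed.

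Each value is a log2 reading of a probe set, and probe sets bind with different strength, so a reading of one gene is not set against that of another. The array of KCl replicate 1 stood apart, with a standard deviation of 1.38 over all named probe sets against 1.62 to 1.78 on the other 5 arrays. On it 84.7% of the genes below the 30th percentile of mean signal read highest of the 6 arrays, and 69.2% of those above the 90th percentile read lowest, so values without it are given beside the members. The precursor genes Sox2 at 9.43 to 10.50, Vim at 11.41 to 12.24 and Fabp7 at 12.75 to 13.15 read above the 96th percentile of genes on average, and Nes, at 8.12 to 9.70, lay at the 87.8th. Of the other stem and precursor markers, Egfr lay at the 98.1st and Mki67 at the 95.0th. Pax6 at the 75.4th, Hes5 at the 71.1st, Msi1 at the 65.4th, Hopx at the 65.1st and Prom1 at the 49.7th lay lower. Such a rank also depends on how strongly the probe set binds.

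Because norepinephrine and depolarisation both reach genes through cAMP and calcium signals, the sequence before the start of each gene was searched for the cAMP response element. Windows of 250 bases were taken from RefSeq (GRCm38.p6) for 9 of the 10 genes, 13 windows in all. The windows of Gng3, the gene with the largest difference, of Gng2, which had the next largest, and of Gng4, which differed little and holds the core motif, are shown. The Gng3 window is chr19:8839247-8839496 on the minus strand, the Gng2 window is chr14:19976694-19976943 on the minus strand, and the Gng4 window, before the second of its starts in the table, is chr13:13784057-13784306 on the plus strand. Each runs 5′ to 3′ and ends at the base before the start, with motif matches in capitals.
Gng3: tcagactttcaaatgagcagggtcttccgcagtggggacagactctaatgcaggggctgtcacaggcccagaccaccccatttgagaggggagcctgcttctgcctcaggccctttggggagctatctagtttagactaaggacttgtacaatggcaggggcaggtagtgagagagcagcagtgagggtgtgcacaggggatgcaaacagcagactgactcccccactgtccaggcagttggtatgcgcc
Gng2: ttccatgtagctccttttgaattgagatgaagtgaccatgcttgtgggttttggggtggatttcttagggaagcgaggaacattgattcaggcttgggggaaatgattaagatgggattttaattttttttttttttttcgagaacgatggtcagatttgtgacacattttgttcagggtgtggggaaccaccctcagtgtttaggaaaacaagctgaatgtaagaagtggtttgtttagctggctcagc
Gng4: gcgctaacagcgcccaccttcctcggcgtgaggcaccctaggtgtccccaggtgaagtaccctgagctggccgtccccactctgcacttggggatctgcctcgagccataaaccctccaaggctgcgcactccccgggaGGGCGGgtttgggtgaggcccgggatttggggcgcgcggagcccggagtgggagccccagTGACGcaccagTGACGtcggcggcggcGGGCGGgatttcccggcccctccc
The motifs searched, on both strands, were the core TGACG, the full palindrome TGACGTCA, which contains that core, the GC box, read as GGGCGG, the CCAAT box, and the TATA box, read as TATAAA. The windows of Gng3 and Gng2 held no match to any of them. In the Gng4 window the core lay 2 times and the GC box 2 times. Among all 32851 windows of the table, 17.8% held the core, 1.55% the palindrome, 32.7% the GC box, 33.8% the CCAAT box and 12.4% the TATA box. Among the 13 windows of gamma subunit genes, 2 held the core, 0 the palindrome, 7 the GC box, 2 the CCAAT box and 0 the TATA box. A match is a description of the letters, and its absence says only that they are not in this window.

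Gng3, a gamma subunit abundant in neurons of the brain, read 10.04, 9.33 and 9.80 on norepinephrine replicates 1, 2 and 3 and 7.66, 8.04 and 7.93 on KCl replicates 1, 2 and 3. The groups lay far apart, with a gap of 1.29 log2 units between the lowest norepinephrine and the highest KCl reading. The means were 9.72 ± 0.36 (SD, n = 3) and 7.88 ± 0.20, and the difference, norepinephrine minus KCl, was 1.84 ± 0.23 (moderated SE), a 3.59-fold difference. Only 4 of the 19937 genes had a larger one toward norepinephrine. Without KCl replicate 1 it was 1.74 ± 0.22, and after a further quantile normalization of the 6 arrays 1.77 ± 0.23. In spheres of mixed cells, fewer cells of a type and less RNA per cell cannot be told apart.

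Gng2, a subunit found in many tissues and plentiful in brain, was the next largest. It read 8.75, 8.88 and 8.51 with norepinephrine and 7.93, 8.48 and 7.99 with KCl. The groups did not overlap, but norepinephrine replicate 3 and KCl replicate 2 stood only 0.025 apart. The difference was 0.58 ± 0.22 (moderated SE, n = 3 per group), and 0.47 ± 0.20 without KCl replicate 1. When each array was centred on its median, the readings of those samples overlapped, with the difference at 0.61.

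Gng10, a widely expressed member, read 9.61, 9.53 and 9.60 with norepinephrine and 8.81, 9.51 and 9.35 with KCl. The norepinephrine samples lay close together, and KCl replicate 1 was the low sample of the other group. The difference was 0.35 ± 0.22, but 0.15 ± 0.16 without KCl replicate 1, and the gap between the groups was 0.016. After the further quantile normalization, and after centring, the Gng10 groups overlapped.

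**Figure D1:**
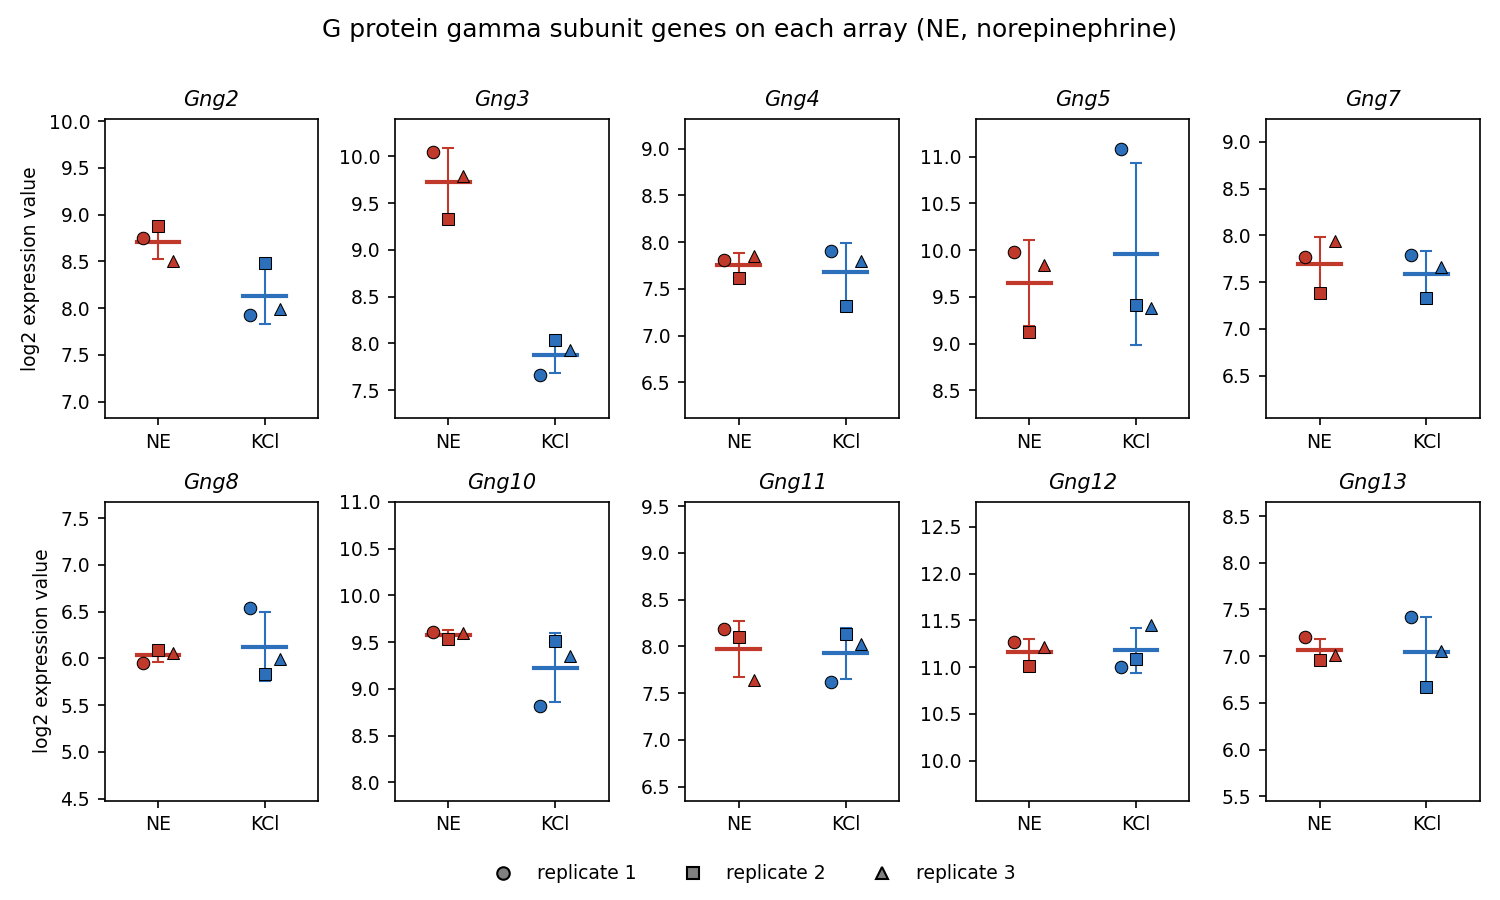
Log2 expression values of the 10 gamma subunit genes on the 3 norepinephrine (NE, red) and 3 KCl (blue) arrays, with the group mean (horizontal line) and SD (bars). Each vertical axis spans the same number of log2 units around the mean of its gene. Gng3 is the gene with a wide gap between the groups, those of Gng2 and Gng10 barely separate, and KCl replicate 1 reads 11.08 for Gng5.

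The other 7 members had overlapping groups. Gng7, which in the striatum joins the G protein coupled to dopamine and adenosine receptors, read 7.77, 7.39 and 7.94 with norepinephrine and 7.79, 7.33 and 7.66 with KCl, a difference of 0.11 ± 0.22 (0.21 without KCl replicate 1). Gng4, a subunit of brain and other excitable tissue, read 7.81, 7.61 and 7.85 against 7.90, 7.32 and 7.80. In both genes replicate 2 was the low sample of either group, and the Gng4 difference of 0.08 ± 0.21 became 0.20 without KCl replicate 1 and -0.008 after quantile normalization.

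Gng12, widely expressed and a substrate of protein kinase C, read 11.27, 11.01 and 11.21 with norepinephrine and 11.00, 11.08 and 11.45 with KCl. All 6 samples lay within a narrow band, with a difference of -0.01 ± 0.20 that was -0.10 without KCl replicate 1, -0.19 after quantile normalization and 0.02 after centring. Gng11, which carries a farnesyl group where the other members carry geranylgeranyl, read 8.18, 8.10 and 7.64 against 7.62, 8.14 and 8.02. Its low samples, norepinephrine replicate 3 and KCl replicate 1, came from either group, and the difference of 0.05 ± 0.23 was -0.11 without KCl replicate 1.

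The members known from chemosensory cells read highest on KCl replicate 1, as did Gng4 and Gng5. Gng8, a subunit of olfactory and vomeronasal neurons, read 5.95, 6.09 and 6.06 with norepinephrine and 6.54, 5.84 and 6.00 with KCl. Gng13, a subunit of taste and olfactory receptor cells and of retinal bipolar cells, read 7.20, 6.96 and 7.02 against 7.42, 6.67 and 7.06. For both genes KCl replicate 1 was the highest and KCl replicate 2 the lowest of the 6 samples. Their differences were -0.09 ± 0.22 and 0.01 ± 0.23, and 0.11 and 0.20 without KCl replicate 1. After quantile normalization Gng8 stood at 0.03. The photoreceptor subunits outside the group, Gngt1 and Gngt2, stood at -0.12 ± 0.21 and -0.10 ± 0.29, and at 0.07 and 0.14 without that array.

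Gng5, expressed in many tissues and in progenitors of the embryonic brain, read 9.98, 9.12 and 9.84 with norepinephrine and 11.08, 9.41 and 9.38 with KCl. KCl replicate 1 alone was far above the others, on an array where only 9.08% of genes above the 90th percentile of mean signal read highest. The difference was -0.31 ± 0.45 on 6 arrays and 0.26 ± 0.25 without that array, while quantile normalization of all 6 left it below 0, at -0.46. The identity of this probe set is uncertain. The platform annotation names it Gng5, whose gene lies on chromosome 3, but of the 20 named probe sets nearest to it in number 0 belong to genes of chromosome 3 and 17 to genes of chromosome 16, where RefSeq lists the pseudogene Gng5-ps. For the other 9 members, 12 to 20 of the 20 nearest probe sets belonged to genes of the member's own chromosome. Over all named probe sets, 2.44% had no nearest one from their gene's chromosome. Which of the copies the probes bind was not tested.

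**Figure D2:**
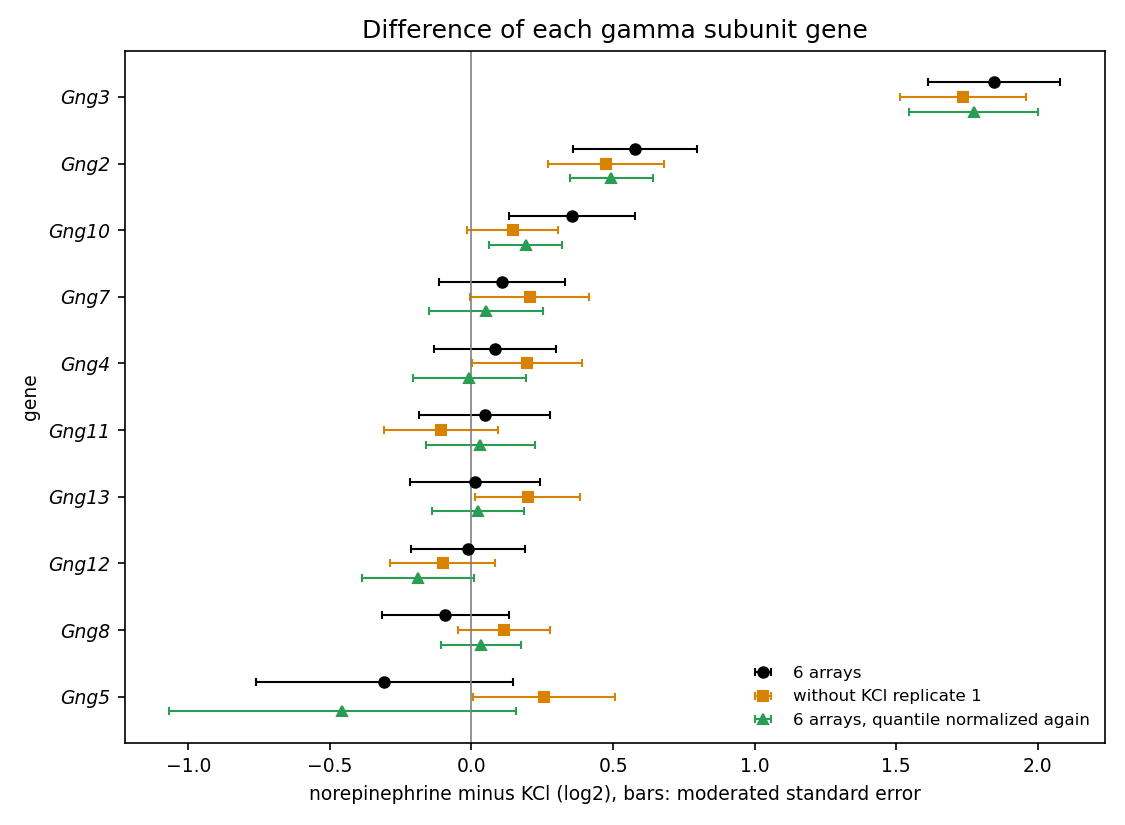
Norepinephrine minus KCl in log2 units for each gamma subunit gene, with moderated standard errors as bars, on 6 arrays (circles), without KCl replicate 1 (squares) and after a further quantile normalization (triangles). Gng3 stays between 1.74 and 1.84, while Gng5 moves from -0.31 to 0.26 when KCl replicate 1 is left out.

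Across the family, 7 of 10 members were higher with norepinephrine and 3 higher with KCl. The median difference was 0.07, where the median over all 19937 genes was -0.07 and 37.8% of genes were higher with norepinephrine. Without KCl replicate 1, 8 members read higher with norepinephrine, at a median of 0.20, against 0.01 and 52.7% over all genes. Without KCl replicate 2 only 4 were higher, with a median of -0.04. The groups did not overlap for 3 members, all higher with norepinephrine, and the share over all genes was 4.44% in that direction and 4.58% toward KCl. Without KCl replicate 1 the count was again 3, beside 8.27% of all genes, and after quantile normalization 2, beside 5.24%. Leaving out each of the other arrays in turn also left 3, while the share over all genes was 5.83%, 7.33% and 6.71% without norepinephrine replicates 1, 2 and 3 and 13.5% and 6.85% without KCl replicates 2 and 3. Groups that do not overlap on 6 arrays cannot overlap on fewer, so leaving out an array could not lower the count. Of the 3, Gng3 alone stayed without overlap after centring, where the share was 4.55%. Since the family was chosen through this comparison, nothing is read from that count.

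**Figure D3:**
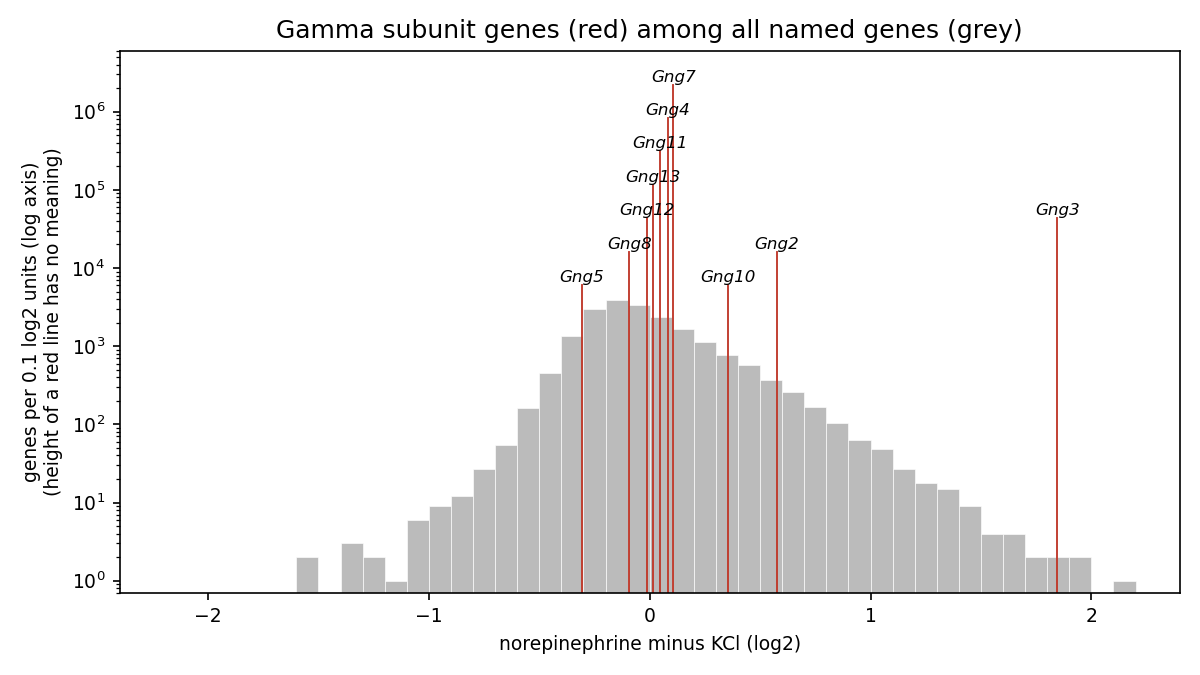
Number of named genes per 0.1 log2 units of norepinephrine minus KCl (grey bars, log axis), with the 10 gamma subunit genes marked by red lines whose height carries no value. Gng3 at 1.84 lies in the far right tail, Gng2 at 0.58 and Gng10 at 0.35 on the right slope, and the other 7 between -0.31 and 0.11.

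Across all features, limma with Benjamini-Hochberg adjustment called 0 of 21640 named probe sets (0%) at an adjusted p under 0.05, with 0.661 as the smallest adjusted value. Before adjustment, 743 probe sets (3.43%) had p under 0.05. The gamma subunit genes were thus among the genes that did not pass.

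Gng3 shares its place in the genome with another gene. In RefSeq its span on chromosome 19 overlaps that of Bscl2, which encodes seipin, a protein of lipid droplet formation. Bscl2 read 9.30, 8.42 and 8.79 with norepinephrine and 7.93, 7.98 and 8.31 with KCl. Its groups did not overlap either. With norepinephrine both genes were highest on replicate 1 and lowest on replicate 2, and both were lowest of all on KCl replicate 1. Among the KCl samples Bscl2 was highest on replicate 3 and Gng3 on replicate 2. The Bscl2 difference was 0.76 ± 0.26 (moderated SE, n = 3 per group; 0.69 without KCl replicate 1), and it did not pass (limma adjusted p = 0.939). Where 2 genes overlap, probes may take up RNA of either, and whether they did was not tested. The nearest named genes on either side that do not overlap Gng3 showed no such gap. Hnrnpul2, an RNA-binding protein gene, read 11.31, 11.32 and 11.33 against 10.52, 11.41 and 11.52, and Lrrn4cl read 5.86, 5.80 and 6.19 against 6.39, 5.82 and 6.32. For Gng13, which overlaps Chtf18, a gene of chromosome cohesion, the partner stood at -0.12 ± 0.20.

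**Figure D4:**
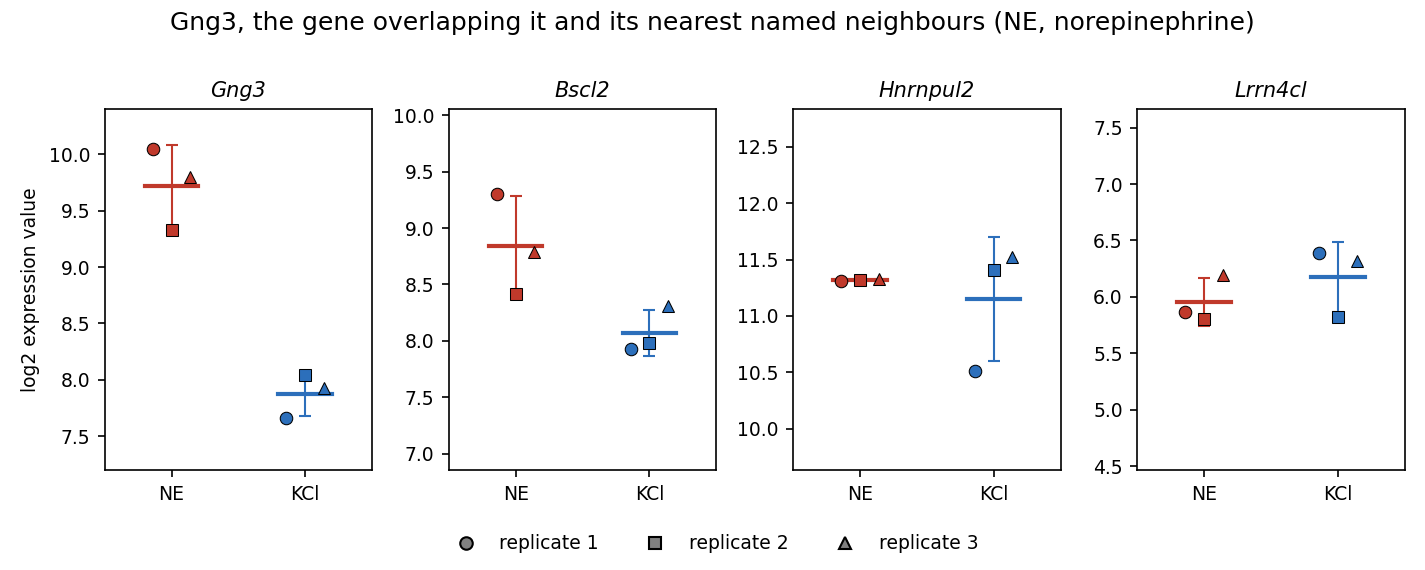
Log2 expression values of Gng3, of Bscl2, which overlaps it, and of the neighbours Hnrnpul2 and Lrrn4cl on each norepinephrine (NE, red) and KCl (blue) array, with the group mean (line) and SD (bars). Gng3 and Bscl2 separate by treatment with gaps of 1.29 and 0.11 log2 units, and the groups overlap for the neighbours.

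The genes whose profile over the 6 arrays was most like that of Gng3 were sought among 1676 genes of moderate or high signal and an SD of at least 0.5. The 6 highest Pearson correlations belonged to Gstm7, a glutathione transferase, at 0.997, the matrix protein gene Efemp1 at 0.990, Clu, which encodes the chaperone clusterin, at 0.988, Minar2 at 0.985, the calcium-binding protein gene S100a1 at 0.969, and Rarres2, which encodes the chemoattractant chemerin, at 0.969. All 6 were higher with norepinephrine, by 0.91 for Gstm7, 1.13 for Efemp1, 1.04 for Clu, 1.73 for Minar2, 0.98 for S100a1 and 1.03 for Rarres2. Their direction follows from the choice by correlation with Gng3, whose groups lay far apart. Correlations above 0.9 were found for 38 of the 1676 genes. The 6 points fall into the treatment groups and share array effects, so these values describe likeness over 6 samples only.

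The partners of the gamma subunits were read next, from lists of the pathway. Of the 5 beta subunit genes, 2 were higher with norepinephrine and 3 with KCl, with a median of -0.006 and overlapping groups in all 5. Gnb1, the main beta subunit of brain, read 11.48, 11.71 and 11.43 against 10.87, 11.74 and 11.29, a difference of 0.24 ± 0.25 that was 0.03 without KCl replicate 1. Gnb4 stood at -0.23 ± 0.27 and Gnb5, which pairs with RGS proteins in place of gamma subunits, at -0.05 ± 0.19.

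Of 16 genes for targets of beta-gamma dimers, 14 read higher with KCl, and the list median was -0.18. Without KCl replicate 1, 10 of the 16 read higher with norepinephrine, at a median of 0.01. The 1 whose groups did not overlap, beside 4.58% of all genes toward KCl, was Adcy2, an adenylyl cyclase that beta-gamma dimers stimulate. It read 7.26, 7.13 and 7.31 with norepinephrine and 7.34, 7.80 and 7.41 with KCl. Its difference was -0.29 ± 0.20, and -0.38 without that array. The channel genes Kcnj3 and Kcnj6, which form potassium channels opened by beta-gamma dimers, stood at -0.18 ± 0.20 and -0.14 ± 0.22, and the calcium channel gene Cacna1b, whose channel the dimers inhibit, at -0.25 ± 0.27 (0.01 without KCl replicate 1).

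Genes for regulators of the dimer or of the beta subunit, 10 measured of 13 entries, were split evenly, with 5 higher with norepinephrine, 5 higher with KCl and a median of -0.03. On the 5 arrays without KCl replicate 1, 3 were higher with norepinephrine, at a median of -0.06. Of the 10, 6 encode RGS proteins that pair with Gnb5 (Rgs6, Rgs7, Rgs9 and Rgs11) or their anchors (Rgs7bp and Rgs9bp), 3 higher with either treatment and all between -0.22 and 0.18. The other 4 are a receptor kinase and members of the phosducin family, which bind the dimer. Pdcl3, of the phosducin family, was the 1 whose groups did not overlap, at 0.13 ± 0.18, beside 4.44% of all genes toward norepinephrine. The receptor kinase Grk3, which beta-gamma dimers bring to the membrane, stood at -0.11 ± 0.22. Of 8 genes for prenylation enzymes, 4 were higher with norepinephrine and the groups overlapped for all 8. The list median of 0.07 turned to -0.06 on the 5 arrays that leave out KCl replicate 1. Among the 5 whose enzymes make or attach the lipid, 3 were higher with norepinephrine, and among the 3 whose enzymes trim or methylate the protein afterwards (Rce1, Zmpste24 and Icmt), 1. Fdps, which makes farnesyl diphosphate, stood at 0.40 ± 0.37 (0.09 without KCl replicate 1) and Fntb, the farnesyltransferase beta subunit, at 0.20 ± 0.18. Of 9 adrenergic receptor entries, 2 were analysed here, Adra1b at -0.14 ± 0.25 and Adra2c at -0.24 ± 0.22. Without KCl replicate 1 they stood at 0.12 and -0.08. Their mean signal lay low, at the 27.9th and 19.4th percentile of genes. No gene of these pathway lists passed the test over all features, on 6 arrays or without KCl replicate 1.

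**Figure D5:**
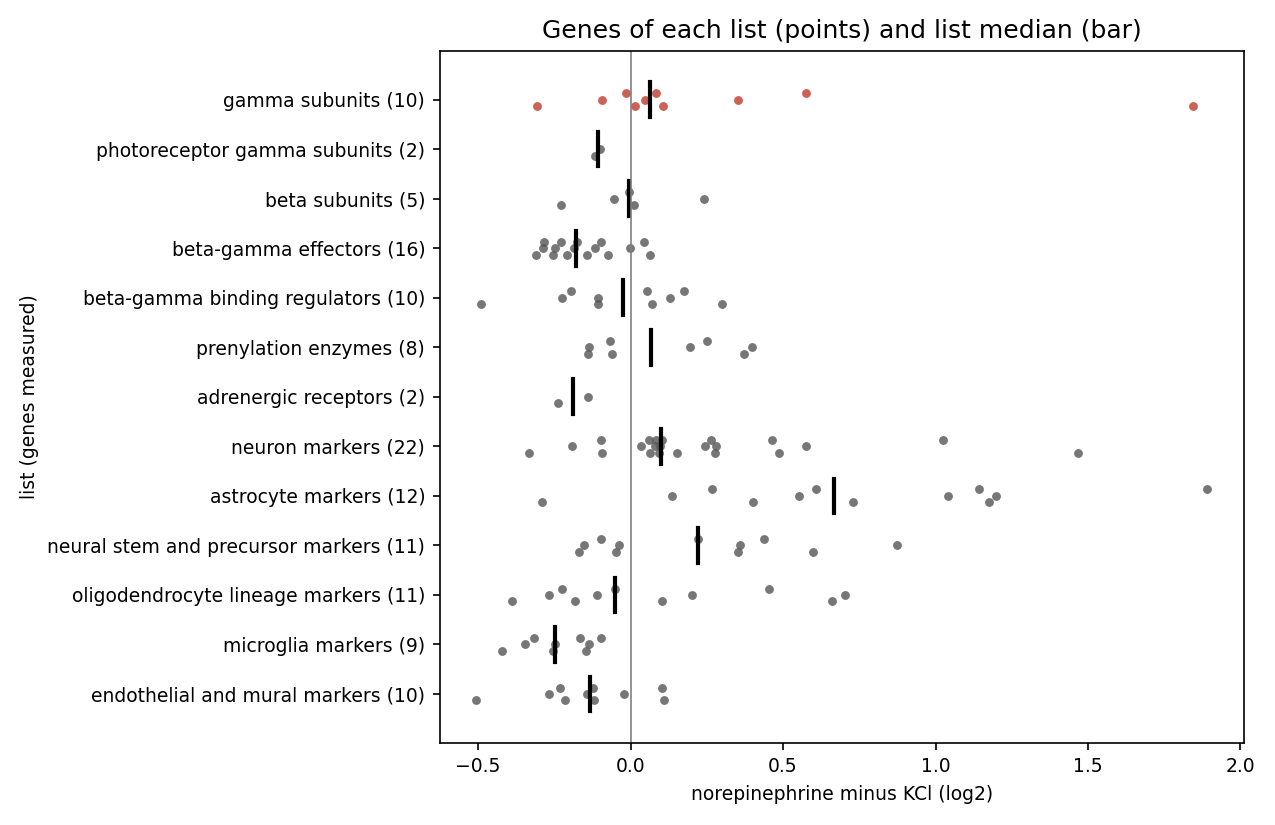
Norepinephrine minus KCl in log2 units for each gene (points) of the gamma subunits (red), the pathway lists and the cell type marker lists (grey), with the list median as a black bar and the number of genes measured in brackets. Gng3 at 1.84 lies beyond the genes of the pathway lists, which run from -0.49 to 0.40.

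Markers of cell types were read beside Gng3. Of 22 neuron markers 18 stood toward norepinephrine, the list median was 0.10 (0.17 without KCl replicate 1), and the mean over the list ran from 7.62 to 7.74 with norepinephrine and from 7.36 to 7.57 with KCl. Toward norepinephrine the groups did not overlap for 5 of them, beside 4.44% of all genes. Among the 5 were Thy1 at 1.47 ± 0.35, Snap25 at 1.03 ± 0.27, Gap43 at 0.58 ± 0.19 and Tubb3 at 0.47 ± 0.18. Toward KCl the groups did not overlap for 2, Map2 at -0.33 and Gad1 at -0.19, beside 4.58% of all genes. With KCl replicate 1 left out the counts were 11 toward norepinephrine, beside 8.27% of all genes, and 2 toward KCl, beside 7.76%. Rbfox3, which encodes the nuclear antigen NeuN of mature neurons, stood at 0.08, and Dcx, of young neurons, at 0.15 (0.38 without that array). Of 12 astrocyte markers 11 stood toward norepinephrine, the list median was 0.67 (0.41 without KCl replicate 1), and the list mean was 9.36 to 9.44 against 8.40 to 8.80. The groups did not overlap for 7 of them toward norepinephrine, beside 4.44% of all genes. Among the 7 were Gfap at 1.89 ± 0.30, Apoe at 1.20 ± 0.21, Aqp4 at 1.17 ± 0.22 and Clu at 1.04 ± 0.18.

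The other marker lists had medians nearer 0 than the astrocyte list. For groups without overlap on 6 arrays, the shares over all genes were 4.44% toward norepinephrine and 4.58% toward KCl. Of 11 stem and precursor markers 6 stood toward norepinephrine, with a median of 0.22 (0.12 without KCl replicate 1). For 4 of them, Hopx at 0.87 ± 0.26, Prom1 at 0.60 ± 0.21, Vim at 0.44 ± 0.21 and Msi1 at 0.36 ± 0.18, the groups did not overlap. Of 11 oligodendrocyte lineage markers 5 stood toward norepinephrine, with a median of -0.05 (0.13 without KCl replicate 1). The groups did not overlap for 3 of them, Gpr17 at 0.70 ± 0.25, Pdgfra, a receptor of oligodendrocyte precursors, at 0.66 ± 0.24 and Cnp at 0.45 ± 0.28 (0.13 without that array). Toward KCl these lists had 0 without overlap on 6 arrays. With KCl replicate 1 left out, 4 genes of each list had no overlap toward norepinephrine, beside 8.27% of all genes. Toward KCl the stem and precursor list then had 1, Nes at -0.58 (-0.10 on 6 arrays), beside 7.76%, and the oligodendrocyte list had 0. Of 9 microglia markers 0 stood toward norepinephrine, with a median of -0.25 (0.02 without KCl replicate 1), and Itgam, at -0.42 ± 0.21, was the 1 whose groups did not overlap. Of 10 endothelial and mural markers 2 stood toward norepinephrine, with a median of -0.13 (0.06 without KCl replicate 1). Their groups overlapped for all 10, with Tek at -0.51 ± 0.25 and Flt1 at -0.27 ± 0.25. On 6 arrays no marker passed over all features. Without KCl replicate 1, Gfap did, at 2.17 (limma adjusted p = 0.045). The arrays give no true zero, so no marker can be called absent. The part of these markers in the Gng3 difference was not tested.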

How the data were processed

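RNA of 6 neurosphere samples was measured on 6 whole-transcript arrays, 3 per treatment, with groups and replicate numbers from the sample titles. The authors deposited log2 values summarised per probe set. Partek and RMA appear in the submitters' processing notes, without versions or settings. Of 34760 probe sets, 21640 have 1 gene symbol in the platform annotation, and a gene is represented by its probe set with the highest mean. These 21640 were fitted with limma 3.58.1 under R 4.3.3 (lmFit, then eBayes, no covariate, two-sided, Benjamini-Hochberg over all of them, threshold 0.05), which was checked on simulated data. Signal over background could not be assessed, no probe set was left out as dim, and the number of arrays limits the precision. Members and lists were chosen with earlier results of these data known. Genes named were all members, from each list up to 4 genes of smallest p among those whose groups did not overlap (or, with none, the 2 of smallest p), the 6 most like Gng3 and its nearest named neighbours. Overlapping genes and a few others in the lists were named after their values were seen. Lists are described by counts and medians. Alternatives were a further quantile normalization, centring, a filter at the 30th percentile, trend and robust moderation, a block for the replicate number, array weights, the mean over probe sets, and leaving out each array. Gene-by-gene array weights, and quantile normalization without KCl replicate 1, were added after seeing the data.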

Additional observations from a re-analysis of the deposited data

How the results depend on the processing

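Over 13 alternatives the Gng3 difference stayed above 0, with values from 1.68 to 2.04, both reached by leaving out 1 norepinephrine sample. The mean over probe sets and the replicate block could not change the difference of any member. Each member has a single probe set, and both groups hold the same replicate numbers. Gng2 (0.47 to 0.75) and Gng10 (0.15 to 0.50) also stayed above 0, whereas the other 7 members changed sign in at least 1 alternative. The groups of Gng3, Gng2 and Gng10 do not overlap, so neither leaving out an array nor weighting the arrays could change their sign. Only quantile normalization and centring could have done so. The number of members without overlap toward norepinephrine was 3, but 2 after quantile normalization and 1 with each array centred. It was 3 in every leave-one-out, where the share over all genes ran from 5.83% to 13.5% against 4.44% on 6 arrays. Separated groups stay separated when an array is left out, so the leave-one-out counts could not fall. Toward KCl the number of members was 0 in every alternative that gave a count. Probe sets at an adjusted p under 0.05 in limma numbered 0, and from 0 to 4 when an array was left out, with 4 without KCl replicate 1 and 1 when the other 5 arrays were also quantile normalized again. Array weights gave 5670, but the default method stopped before it converged and put a weight of 673 on KCl replicate 3 against 0.058 and 0.086 on the other KCl arrays, so that count rests on 1 KCl sample. The gene-by-gene method, with weights of 6.76, 0.158 and 0.288 in the same order, gave 1454. With the replicate number as a block (replicate block) the count was 0, and the Gng3 difference was 1.84, unchanged by construction. Equal numbers are not said to mark a shared source, so same-numbered samples were not treated as pairs. Deviations of same-numbered samples correlated at 0.30, 0.63 and 0.085, and those of unlike-numbered samples at -0.47 to 0.31.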
